A study of Mus musculus with 2 samples.

Results

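Cholesterol that reaches a cell in lipoproteins is freed in lysosomes, stored as esters in lipid droplets, released again from them, moved between membranes and exported, and 7 genes of these steps are described here by the DNase I accessibility of their promoters and surroundings in the adrenal gland. They are Npc1, Npc2, Lipa, Soat1, Lipe, Abca1 and Abcg1, a set chosen by function, with earlier results of these data known. These genes are 7 of the 21802 protein-coding genes of GENCODE vM21 that could be examined. For each gene, the open regions within the gene body and 50 kb on either side were taken, and a promoter region was one within 1 kb of a protein-coding transcript start. DNase-seq maps open chromatin by sequencing the ends of fragments cut by DNase I, and a footprint is a short stretch within an open region where cuts are depleted. The 2 libraries are labelled biological replicates 1 and 2, each with technical replicate number 1, and both were made from adrenal gland. The donor mice were adult males of the B6CASTF1/J strain, aged 18 to 20 months. These are first-generation hybrids between the C57BL/6J and CAST/EiJ strains, and differences between their alleles and the reference were not examined. The labels name separate tissue samples but 1 donor entry, so it is not stated whether the libraries came from separate animals, and the spread between them may be technical. With 1 group there is no condition to compare, and no test was made.

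In the lysosome, acid lipase (Lipa) hydrolyses cholesteryl esters taken up with lipoproteins, and the soluble protein Npc2 hands free cholesterol to the membrane protein Npc1, which passes it out of the organelle. At the endoplasmic reticulum, Soat1 re-esterifies cholesterol for storage in lipid droplets, and hormone-sensitive lipase (Lipe) releases it from them. The adrenal cortex is rich in such droplets, since cholesterol is the precursor of its steroid hormones, and Lipe is also a main lipase of adipocytes. Surplus cholesterol leaves cells through the transporters Abca1 and Abcg1, both known targets of the oxysterol receptors LXR, which bind paired half-sites spaced as a DR4 element.

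The libraries differed in ways that bear on every comparison between them. Replicate 1 had 98630 listed peaks and replicate 2 had 118249. Of all protein-coding genes, 64.5% had a promoter peak in both libraries, the share to set beside the marker counts that follow. Of the 8 adrenal cortex markers, 5 had a promoter peak in both libraries (Nr5a1, Star, Cyp11a1, Cyp11b1 and Scarb1), and all 5 were lower in replicate 2, while Cyp21a1, Hsd3b1 and Mc2r had none in either. Summed promoter heights here include peaks listed in 1 library alone. The sum over the cortex list was 16.0 in replicate 1 and 12.2 in replicate 2. Of the 8 adipocyte markers, 6 were open in both libraries, 5 of these were higher in replicate 2, Cfd had no promoter peak, and the summed height was 7.55 in replicate 1 and 9.86 in replicate 2. Chromaffin markers were open in both libraries for 3 of 8 genes (summed height 19.5 and 15.0), with no promoter peak at Th or Pnmt. Slc18a1 alone (mean height 10.9) made up most of each sum and most of the drop between them. Chga was also lower in replicate 2 (1.98 and 1.61), but Chgb was not (3.71 and 3.77), so these sums do not describe the markers as a group. Endothelial markers were open in both for 5 of 6 (8.08 and 6.37), and macrophage markers for 2 of 8 (1.87 and 2.68), with none at Csf1r, Ptprc, C1qa, C1qb or Tyrobp and with Adgre1 in replicate 2 alone. Of the 6 hepatocyte genes taken as a control, Apoh alone was open in both. In bulk tissue, fewer cells of a type and less opening per cell cannot be told apart.

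All 7 genes had a promoter peak in both libraries, beside 64.5% of all protein-coding genes (14066 of 21802). Peak height is the authors' normalised DNase signal, and its median over the genes open in both libraries was 3.90, with a 10th percentile of 0.867 and a 90th of 7.59. The median of the 7 genes was 4.97, with 5 genes above the median of all open genes and 2 below it. Npc1 had the highest promoter (9.06 ± 0.263, mean ± SD, n = 2 here and below), followed by Lipe (6.99 ± 0.513), and the library values of each lay clear of those of the next gene in order. Npc2 (5.01 ± 0.218), Lipa (4.97 ± 0.754) and Abca1 (4.81 ± 0.860) overlapped each other, and Soat1 (3.85 ± 0.692) overlapped Abca1. Abcg1 was lowest (1.21 ± 0.337), and both of its values lay below all values of the other 6 genes. Base composition did not follow this order. The CpG observed-to-expected ratio of the highest promoter region was 0.972 at Soat1, 0.889 at Npc2, 0.782 at Npc1 and 0.772 at Abcg1, near or above the median of 0.766 over promoter regions, and 0.599 at Lipe, 0.585 at Abca1 and 0.339 at Lipa.

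**Figure D1:**
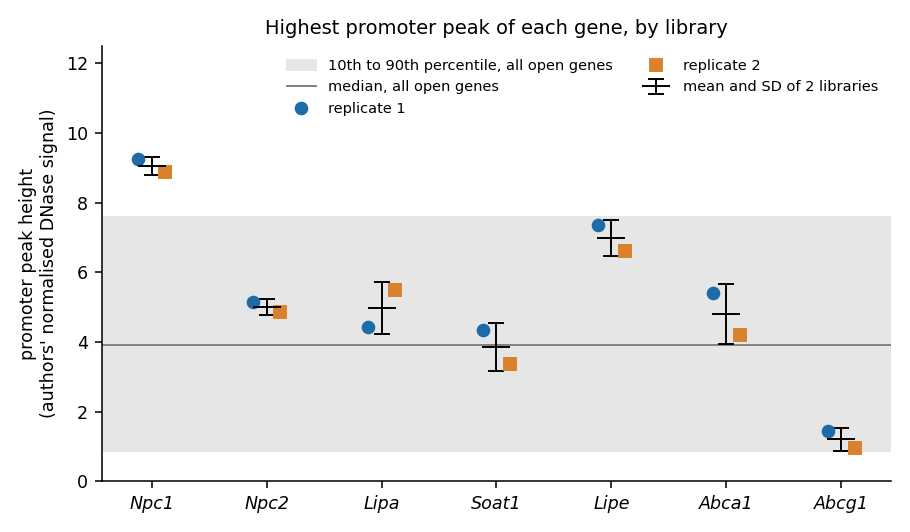
Height of the highest promoter peak (authors' normalised DNase signal) of the 7 genes, ordered by role. Circles are replicate 1, squares replicate 2, bars the mean and SD of 2 libraries, and the grey band the 10th to 90th percentile of all open genes. Npc1 at 9.24 and 8.87 lies above the band, and Abcg1 at 1.44 and 0.967 lies near its lower edge.

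The lysosomal exit transporter had the tallest promoter. Npc1 (ENSMUSG00000024413, minus strand, chr18:12189692-12236400) had a region over its start with a height of 9.24 in replicate 1 and 8.87 in replicate 2, rank 505 of 14066 open genes, so that 96.4% of them were lower. The libraries were close, with a log2 ratio of replicate 2 to replicate 1 of -0.06. A second region 641 bp upstream measured 3.07 and 3.67. Together they held 7 footprints found in both libraries, and 2 GC boxes (the letters GGGCGG, bound by SP and KLF factors), 159 and 206 bp upstream of the start, lay under footprints of both. The gene body itself was sparse, since neither of its 2 listed regions was found in both libraries. They were in replicate 2 and measured 0.952 and 1.19. The tallest region of the locus was not at Npc1 but 67620 bp downstream, at the start of Rmc1, with 9.63 and 10.6. It carried a CLEAR E-box (TCACGTGA, the site of the lysosomal regulator TFEB and its relatives) under footprints of both libraries, which 0.573% of the 22681 promoter regions found in both libraries did in a 200 bp window. A neighbouring Rmc1 region measured 2.72 and 2.70, and a region 33541 bp upstream of Npc1, nearest to Ankrd29, measured 1.47 and 1.64. Of the 11 regions in the locus, 5 were found in both libraries.

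Npc2 and Lipa, the soluble partners of this exit route, had promoters of near-equal mean height. Npc2 (ENSMUSG00000021242, minus strand, chr12:84754562-84773152) shares its promoter region with Isca2, an iron-sulfur cluster assembly gene, since starts of both lie in it, and its height cannot be divided between them. It measured 5.16 in replicate 1 and 4.85 in replicate 2, rank 4946, and held 6 footprints found in both libraries. Lipa (ENSMUSG00000024781, minus strand, chr19:34492318-34527474) measured 4.44 and 5.50, rank 5004, with 3 such footprints, and was the only one of the 7 genes whose highest promoter peak was taller in replicate 2 (log2 ratio 0.31).

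The reference sequence upstream of both starts is printed to show the DNA under these footprints. Bases under footprints of both libraries are in capitals, on the sense strand of the gene, without annotated UTR, read from the RefSeq sequence of GRCm38.p6. The Npc2 stretch is chr12:84773153-84773250 and the Lipa stretch is chr19:34527475-34527640.
Npc2: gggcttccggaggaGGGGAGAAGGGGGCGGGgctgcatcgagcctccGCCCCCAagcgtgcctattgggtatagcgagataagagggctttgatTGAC
Lipa: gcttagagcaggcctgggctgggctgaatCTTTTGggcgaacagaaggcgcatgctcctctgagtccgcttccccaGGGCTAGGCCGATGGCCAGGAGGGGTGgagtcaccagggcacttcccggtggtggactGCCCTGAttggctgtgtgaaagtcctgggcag
Counted from the 5′ end, GC boxes lie at bases 25 to 30 and 46 to 51 of the Npc2 stretch, on opposite strands, both under footprints. All 6 GC boxes of the Npc2 promoter region were under footprints of both libraries. The CCAAT at bases 64 to 68, read on the other strand, was not. The Lipa stretch holds no GC box, and its CCAAT on the other strand, at bases 141 to 145, was not under a footprint of both. A GC box under footprints of both was present in 24.7% of promoter regions and a CCAAT in 4.89%, in windows of 200 bp.

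Beyond the promoters, the 2 loci held a few tall distal regions. The highest near Npc2 was 11469 bp upstream (5.18 and 4.28), close in height to the promoter and nearest to the start of Ltbp2. It was followed by one in an Npc2 exon 17552 bp downstream (2.68 and 2.41) and one 27331 bp upstream (0.759 and 1.39). Near Lipa it was 20607 bp upstream (4.61 and 4.65), with Ifit2 the nearest start, and the libraries differed by only 0.01 on the log2 scale. The next lay in a Lipa intron 26394 bp downstream (1.44 and 1.70). It was followed by an intergenic region beyond the gene, 43634 bp downstream and nearest to the start of Ch25h (0.929 and 1.93). The tallest Lipa region of 1 library was in an intron 751 bp downstream of the start, at 0.967 in replicate 2. The share of regions taller in replicate 2 was not counted over all loci. The median log2 ratio was 0.21 over all distal regions and -0.03 over all promoter regions found in both libraries. Lipa had 12 of 20 regions found in both libraries, of which 11 were taller in replicate 2. The 12 include 3 regions at the neighbouring Ch25h, which makes an oxysterol from cholesterol, and 2 at the interferon-induced Ifit2. The Ch25h region over its start measured 1.07 and 1.22 and carried a cAMP response element (TGACGTCA) under footprints of both libraries, as 1.81% of promoter regions did in a 200 bp window. A Ch25h region 377 bp from its start measured 0.425 and 0.772, and its log2 ratio of 0.86 was the 1 value among 25 promoter regions in the 7 loci outside the central 95% of all promoter regions (-0.67 to 0.80). Npc2 had 6 of 13 regions in both libraries, and 5 of these 6 were lower in replicate 2. The other 7 were listed in replicate 2 alone, at heights of 0.412 to 1.03.

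The esterifying enzyme had a compact locus. Soat1 (ENSMUSG00000026600, minus strand, chr1:156424525-156474331) measured 4.34 in replicate 1 and 3.36 in replicate 2 over its start, rank 7147, close to the middle of all open genes (49.2% lower). The log2 ratio was -0.37, and the promoter held 4 footprints found in both libraries. No region was listed within its gene body in either library apart from the promoter. The locus had 7 regions, 4 of them in both libraries, or 2.67 per 100 kb against a median of 4.68 over all gene loci, the lowest of the 7 genes. Outside the promoter, a weak region lay 47822 bp upstream (0.600 and 0.705). The upstream sequence, chr1:156474332-156474500, is shown in the same way because its longest footprint covers a G-rich run that is not the GC box searched for.
Soat1: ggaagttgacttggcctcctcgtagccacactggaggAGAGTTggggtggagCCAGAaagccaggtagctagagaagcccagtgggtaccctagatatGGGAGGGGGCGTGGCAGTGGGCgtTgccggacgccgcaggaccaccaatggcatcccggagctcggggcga
Its CCAAT, at bases 143 to 147, was not under a footprint in either library.

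Lipe had the most elaborate locus. The gene (ENSMUSG00000003123, minus strand, chr7:25379527-25398710) has 6 protein-coding transcript starts and had 5 promoter regions found in both libraries. The tallest, 579 bp downstream of the nearest start, measured 7.35 in replicate 1 and 6.62 in replicate 2, rank 2001. The next, 199 bp downstream, measured 4.07 and 3.79. The region over that start measured 1.90 and 2.32, and one over a more internal start 1.82 and 2.48. The lowest, 342 bp upstream of a start, measured 0.743 and 0.667. The rank of Lipe therefore rests on a peak within an exon, away from the start itself. With promoters set at 500 bp its mean height was 3.93, with the region nearest to a start it was 2.11, and with only the 5′ end of the gene record no promoter region was found in both libraries. The 5 promoter regions held 9 footprints found in both libraries, the most among the 7 genes. Lipe also had the most open regions, 40 in the locus and 15 in both libraries, or 12.6 shared regions per 100 kb, with fewer in 91.6% of gene loci. The highest region outside the gene lay 25851 bp upstream, nearest to the start of the chemokine gene Cxcl17 (3.63 and 4.84). The next lay downstream (3.34 and 3.49). Its nearest protein-coding start was that of Cnfn, but a start of the noncoding gene 4732471J01Rik lay within 1 kb of it.

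Among the 7 genes, the libraries parted most over the Lipe gene body. The authors listed positions at a false discovery rate under 0.05 for the cut rate, and these covered 17.2% of the gene body in replicate 1 and 37.6% in replicate 2, against medians over all genes of 1.74% and 2.30%. The difference of 20.4 percentage points was larger than in 99.5% of genes. Of the regions within the gene body listed in 1 library, 9 were in replicate 2 (heights 0.442 to 0.817) and 5 in replicate 1 (0.637 to 1.06). The 2 groups were not mixed along the gene, as all 5 of replicate 1 lay between chr7:25388178 and chr7:25392287, around the internal starts, and 8 of the 9 of replicate 2 lay nearer the 3′ end. A further 4 regions of replicate 2 alone lay just beyond the 3′ end, the tallest at 1.53. Some of the others lay within 1 kb of the start of the noncoding gene 4732471J01Rik. By contrast, the promoter was slightly lower in replicate 2 (log2 ratio -0.15). Over the same measure, gene bodies of 7 of the 8 cortex markers were less covered in replicate 2. Cyp11b1 was at 65.2% in replicate 1 and 0 in replicate 2, Star at 31.4% and 7.65%, and Nr5a1 at 13.7% and 1.05%, with Mc2r the exception (1.33% and 1.95%). For adipocyte markers, 7 of 8 were more covered in replicate 2, Fabp4 at 9.58% and 31.7% and Cidec at 0.584% and 5.20%, and Cfd was at 0 in both. Across all genes, 12947 were more covered in replicate 2 and 3831 less. The part that cell composition had in the Lipe difference was not tested.

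**Figure D2:**
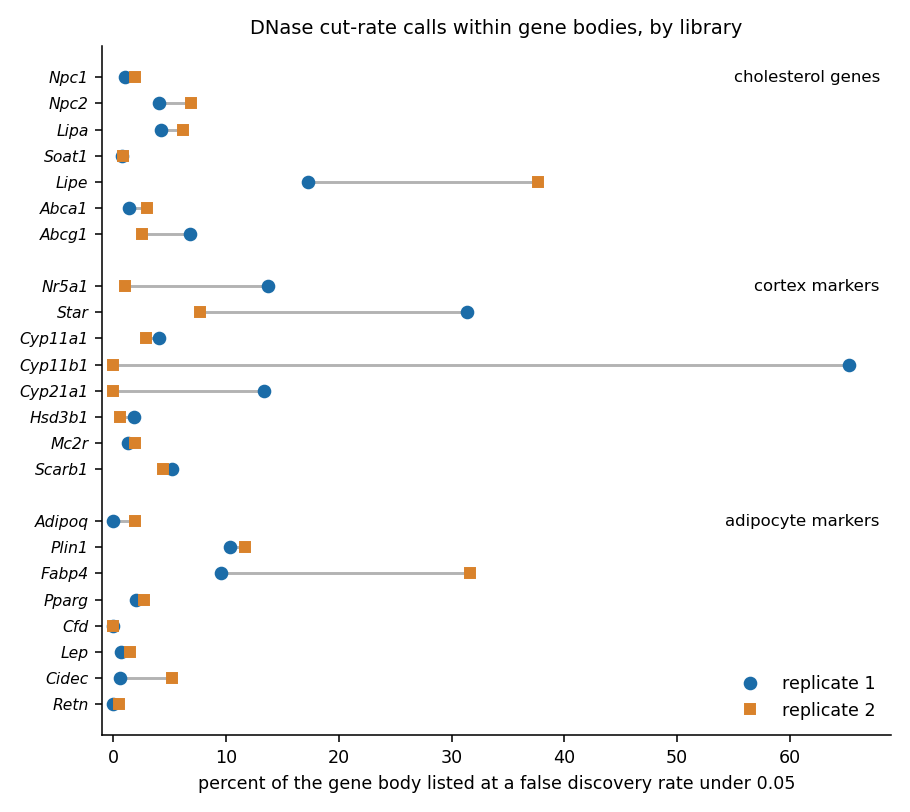
Percent of each gene body listed at a false discovery rate under 0.05 in replicate 1 (circles) and replicate 2 (squares), for the 7 genes, 8 cortex markers and 8 adipocyte markers. Lipe is at 17.2% and 37.6% and Fabp4 at 9.58% and 31.7%, while Cyp11b1 is at 65.2% and 0 and Star at 31.4% and 7.65%.

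The exporter Abca1 was open on both sides of its start. Abca1 (ENSMUSG00000015243, minus strand, chr4:53030787-53159895) had 3 promoter regions found in both libraries. The region over the start measured 3.61 in replicate 1 and 4.22 in replicate 2. The tallest lay 975 bp downstream, within intron sequence and just inside the 1 kb limit, and measured 5.42 and 4.20 (log2 ratio -0.37), rank 5345. Between them a low region measured 1.01 and 1.20 and had no footprint of both libraries. With promoters set at 500 bp, the mean height of Abca1 was 3.91. The 3 regions held 7 footprints of both libraries. The upstream stretch, chr4:53159896-53160100, and the intron region, chr4:53158721-53158920, are printed with footprints of both libraries in capitals, because each holds a DR4 element and only that of the intron lay under footprints of both libraries.
Abca1 upstream: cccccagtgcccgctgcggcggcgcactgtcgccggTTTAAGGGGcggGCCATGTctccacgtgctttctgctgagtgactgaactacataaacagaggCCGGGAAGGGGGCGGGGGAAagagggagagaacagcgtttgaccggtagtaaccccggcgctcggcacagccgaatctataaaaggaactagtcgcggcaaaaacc
Abca1 intron: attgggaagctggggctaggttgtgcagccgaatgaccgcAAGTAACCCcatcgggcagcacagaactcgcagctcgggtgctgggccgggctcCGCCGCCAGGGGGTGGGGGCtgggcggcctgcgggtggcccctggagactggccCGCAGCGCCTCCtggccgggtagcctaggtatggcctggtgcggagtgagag
In the upstream stretch, GC boxes at bases 43 to 48 and 109 to 114 were under footprints of both libraries, while the DR4 element at bases 139 to 153, 60 bp from the start, was under none. In the intron region, the DR4 element at bases 34 to 48 was under footprints of both libraries.

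DR4 elements were rare among open regions, and 4 of them fell in the loci of the 2 exporters. The pattern was 2 half-sites, each GGTTA or GGTCA, at the spacing of LXR sites, searched on both strands. It was written with known LXR sites in mind, so its presence at Abca1 is no independent finding. In all, 134 of 65778 regions found in both libraries held one (0.204%), and in 13 it lay under footprints of both. Of 21802 gene loci, 1.48% held at least 1 such region and 3 loci held 3 or more. Abca1 had 3 regions with one and Abcg1 had 1, and the other 5 loci had none. Each is printed with 20 bases on either side, the element in capitals, on the plus strand of GRCm38.p6, in the order Abca1 upstream (chr4:53159928-53159982), Abca1 first intron region (chr4:53158853-53158907), Abca1 inner intron region (chr4:53115971-53116025) and Abcg1 intron (chr17:31073466-31073520).
Abca1 upstream: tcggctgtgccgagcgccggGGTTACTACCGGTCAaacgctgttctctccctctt
Abca1 first intron region: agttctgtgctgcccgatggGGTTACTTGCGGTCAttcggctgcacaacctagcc
Abca1 inner intron region: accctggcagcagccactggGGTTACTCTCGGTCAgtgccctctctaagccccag
Abcg1 intron: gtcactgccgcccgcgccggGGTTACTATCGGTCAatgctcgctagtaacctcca
All 4 have GGTTA as the first half-site and GGTCA as the second, and differ in the 5 bases between them. The first was under no footprint, the second under footprints of both libraries at its GGTTA half-site, and the last pair under a footprint of replicate 2 alone. Only 3 of 22681 promoter regions found in both libraries had a DR4 element under footprints of both in a 200 bp window at their centre. The first intron region of Abca1 is itself among these 3. The inner intron region of Abca1, 43801 bp downstream, was low (0.743 and 0.967), and the Abcg1 region was too (1.25 and 0.847), so their footprints rest on less signal than those of the first intron region.

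Away from its start, Abca1 was taller in replicate 2 at every distal region found in both libraries. These 6 regions, 4 in introns between 32795 and 43801 bp downstream and 2 at 36186 and 36626 bp upstream, had log2 ratios from 0.38 to 0.97, against a median of 0.21 over all distal regions and a central 95% range of -0.61 to 1.26. The taller upstream region measured 2.62 and 4.21, and the tallest intron region 1.06 and 2.08. Of the 13 regions in 1 library only, 12 were in replicate 2, the tallest at 1.37 in an intron. The positions listed under the false discovery rate covered 1.37% of the gene body in replicate 1 and 2.94% in replicate 2. The tallest regions of the locus outside the Abca1 promoter lay 147515 and 147895 bp downstream at Nipsnap3b (6.47 and 6.40, then 4.14 and 4.39), where 7 GC boxes lay under footprints of both libraries, with log2 ratios of -0.02 and 0.08.

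Abcg1 had the weakest promoter of the 7 genes. The gene (ENSMUSG00000024030, plus strand, chr17:31057675-31117988) had a broad, low region over its start that measured 1.44 in replicate 1 and 0.967 in replicate 2, rank 11916, with 15.3% of open genes lower. Its log2 ratio of -0.58 was the most negative of the 7 promoters and within the central 95% of promoter regions. Replicate 1 had 3 footprints in it and replicate 2 had 5, but none overlapped, so 6 of the 7 genes had a promoter footprint found in both libraries, beside 92.9% of all open genes. At the stricter rule that peaks overlap by 50% of the shorter one, the Abcg1 promoter no longer counted as found in both. Its log2 ratio therefore compares heights at partly different positions. It held 6 GC boxes, none under footprints of both, and an NR5A1 half-site, bound by the steroidogenic regulator Nr5a1, 399 bp downstream. That site is printed with 20 bases on either side, at chr17:31058102-31058150 on the minus strand, because Nr5a1 is a central regulator of the adrenal cortex, and it was under no footprint in either library.
Abcg1 half-site: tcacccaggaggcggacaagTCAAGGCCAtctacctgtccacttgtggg
Such a half-site was present in 3.87% of all regions found in both libraries, over their whole length, and under footprints of both in 0.442%.

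Within the Abcg1 gene body the libraries differed in the opposite direction from Lipe. Listed positions covered 6.81% of it in replicate 1 and 2.56% in replicate 2, a difference lower than in all but 4.45% of genes, and Abcg1 was the 1 gene of the 7 with less coverage in replicate 2. The gene body had 8 regions of replicate 1 alone, at heights of 0.133 to 0.526, and 2 of replicate 2 alone, both at 0.510. An intron region 15634 bp downstream, the one with the DR4 element, measured 1.25 and 0.847 and also held an NRF1 site under footprints of both libraries. Most cortex markers differed in the same direction over gene bodies, as given above, and so did the endothelial markers Egfl7 (17.5% and 3.56%) and Cdh5 (6.65% and 0.173%), although 3 of the 6 endothelial markers were higher. Their part in the Abcg1 difference was not tested.

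The tallest regions near Abcg1 lay outside it, and most held the letters of a CTCF core. The highest was 8596 bp downstream of the gene's last start (2.77 and 2.95), followed by one 37855 bp upstream (2.10 and 2.25) and one 27536 bp downstream of the last start, nearest to Tff2 (1.04 and 1.73). The tallest region of 1 library was 17775 bp upstream, at 0.997 in replicate 2. A relaxed form of the CTCF core, CCNNNAGNNGGC, was added to the searched motifs after the data were seen. It was found in 24.5% of regions found in both libraries and under footprints of both in 16.0%. At Abcg1 it was present in 7 of the 11 regions found in both libraries and under footprints of both in 6, and 2.72% of gene loci had 5 or more such regions. The 6 are printed from upstream to downstream with 20 bases on either side and the core in capitals, at chr17:31011686-31011737, chr17:31018446-31018497, chr17:31019703-31019754, chr17:31119627-31119678, chr17:31122107-31122158 and chr17:31138560-31138611, with core 4 on the minus strand and the others on the plus strand.
Abcg1 core 1: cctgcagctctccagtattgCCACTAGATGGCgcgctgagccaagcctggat
Abcg1 core 2: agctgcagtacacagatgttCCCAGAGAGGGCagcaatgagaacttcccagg
Abcg1 core 3: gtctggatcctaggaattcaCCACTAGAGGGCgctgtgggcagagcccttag
Abcg1 core 4: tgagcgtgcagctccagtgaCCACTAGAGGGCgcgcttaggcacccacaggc
Abcg1 core 5: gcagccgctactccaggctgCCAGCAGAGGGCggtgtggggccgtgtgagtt
Abcg1 core 6: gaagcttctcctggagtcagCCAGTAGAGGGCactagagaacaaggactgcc
The distal peaks near Npc2 and Lipa described above also held one under footprints of both libraries, at chr12:84784648-84784699 and chr19:34548134-34548185 on the plus strand, and are shown for comparison.
Npc2 distal core: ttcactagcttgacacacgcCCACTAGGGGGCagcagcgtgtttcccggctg
Lipa distal core: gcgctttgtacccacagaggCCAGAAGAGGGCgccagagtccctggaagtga
The Npc2 core also matches the stricter form searched at first, found under footprints of both in 5.74% of distal regions in a 200 bp window.

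**Figure D3:**
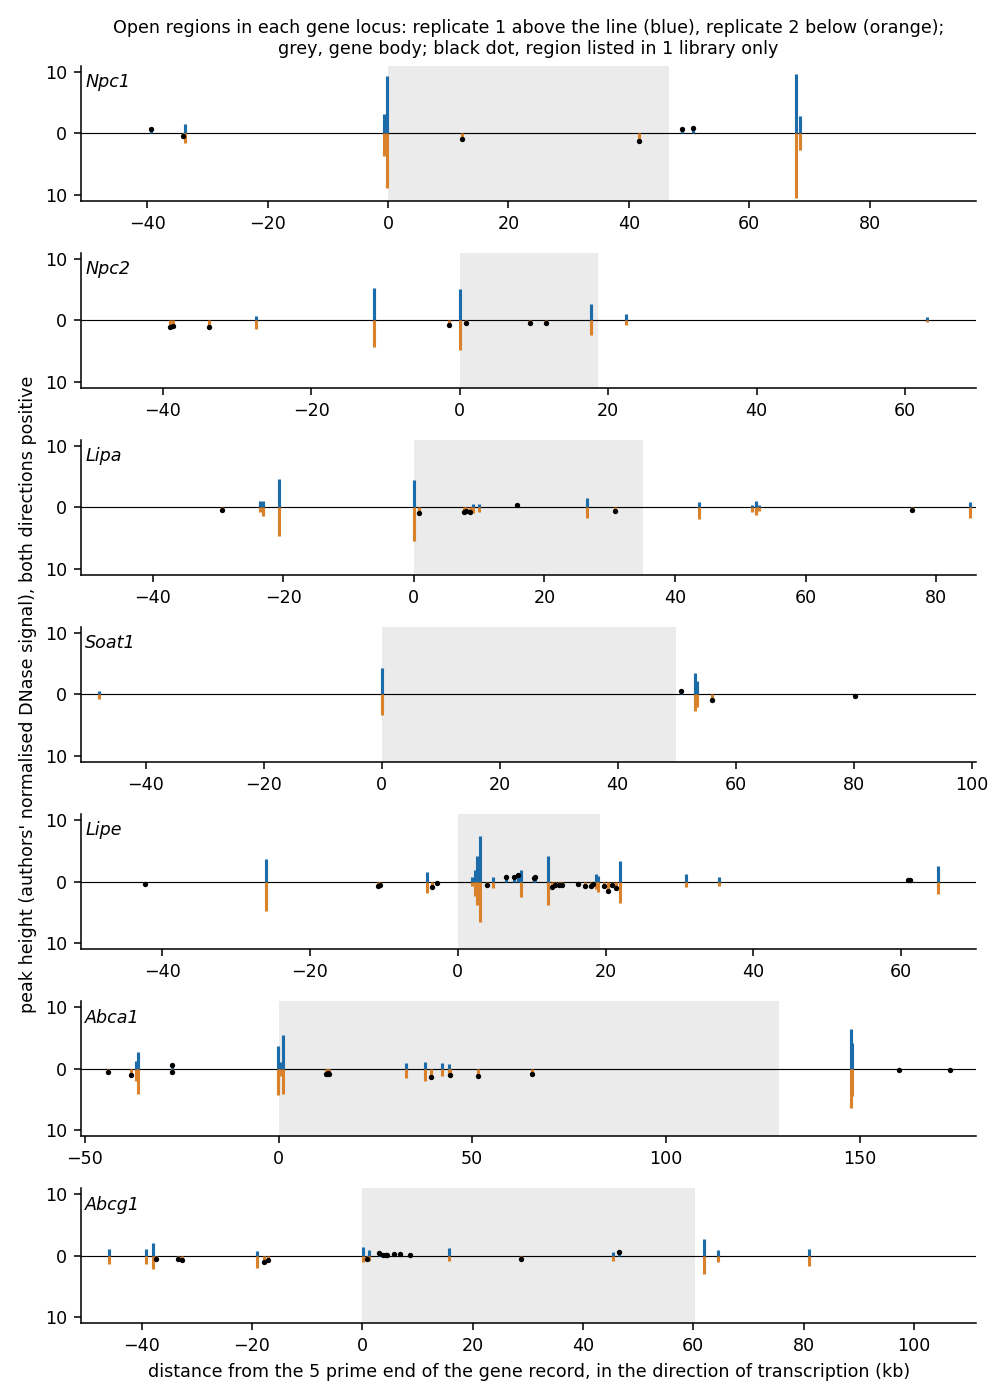
Open regions of the 7 loci by distance from the 5′ end of the gene record in kb, in the direction of transcription. Bars above the line give the height in replicate 1 and bars below it the height in replicate 2, grey marks the gene body and black dots mark regions listed in 1 library. Lipe shows the densest gene body, with 15 regions in both libraries over its locus, and Soat1 the emptiest, with 4.

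The sterol response element (TCACNCCAC), the CLEAR E-box and the cAMP response element had no match in any promoter region of the 7 genes. The NR5A1 half-site had 1 further match in the 64 regions found in both libraries, in a Lipa intron 10049 bp downstream, under no footprint. The Lipe promoter held 3 GC boxes and 1 CCAAT under footprints of both libraries. These are matches to letters in the reference and say nothing about binding.

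Across the 7 loci, 141 regions were listed and 64 were found in both libraries, 45.4% (exact Clopper-Pearson 95% interval 37.0 to 54.0, counting error only), beside 48.1% over the loci of all genes. The remaining 77 were 21 of replicate 1 and 56 of replicate 2, so replicate 2 made up 72.7% of them, beside 61.5% over all gene loci. These single-library regions were weak, with heights of 0.133 to 1.06 in replicate 1 and 0.262 to 1.53 in replicate 2, and none held a footprint of both libraries. Of these, 1 of the 21 and 5 of the 56 had any position listed by false discovery rate in the other library. The same share was not taken over all gene loci, so it is not known whether these counts are unusual. Over the 64 shared regions the median log2 ratio was 0.21, with 41 taller in replicate 2, a count not made over all loci. By class, the 25 promoter regions had a median of -0.01 (all promoter regions -0.03) and the 39 distal regions 0.27 (all distal regions 0.21). The 1 distal value outside the central 95% range was 1.40, at a region 18975 bp upstream of Abcg1 (0.759 and 2.01). No footprint of both libraries was found in 11 of the 64, 17.2%, beside 26.3% of all regions found in both libraries. Positions listed by false discovery rate covered a median of 1.97% of the 7 loci in replicate 1 and 3.03% in replicate 2, beside 2.09% and 2.70% over all gene loci. Lipe had the highest value in both, 4.22% and 10.4%, with 98.5% of gene loci lower in replicate 2, and Soat1 the lowest, 1.06% and 1.31%.

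**Figure D4:**
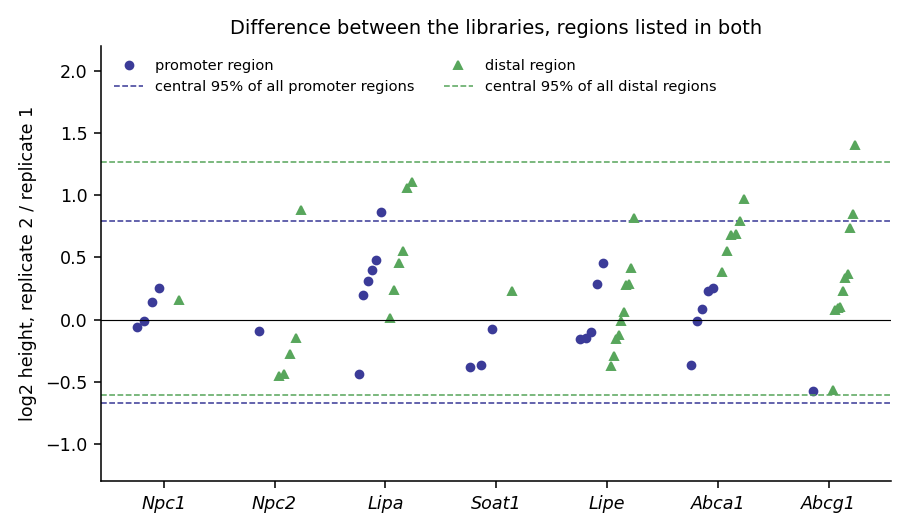
Log2 ratio of height in replicate 2 to replicate 1 for each region found in both libraries, by gene locus, with promoter regions as circles and distal regions as triangles. Dashed lines bound the central 95% of all regions of each class. Distal regions of Abca1 lie between 0.38 and 0.97, and 1 Abcg1 region at 1.40 lies above its range.

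The 7 genes were set beside 53 further genes of cholesterol handling, of which 48 (90.6%) had a promoter peak in both libraries. Over all protein-coding genes this share was 64.5%, which also stands beside the group counts below. The list was chosen with earlier results of these data known, so the difference in shares is a description only. All 11 lysosomal genes were open, led by the membrane protein Lamp1 (10.4 in replicate 1 and 9.50 in replicate 2), the transcription factor Tfeb (10.0 and 7.96) and the protease Ctsd (6.82 and 7.47). All 12 genes of transfer between membranes were open, with the oxysterol-binding protein gene Osbpl8 highest (13.3 and 10.7), then the contact-site protein gene Vapb (11.4 and 10.0) and Osbpl2 (7.36 and 8.86). These groups had median heights of 6.17 and 6.41. All 8 genes of ester storage and droplets were open (median 4.65), led by the droplet coat gene Plin3 (8.78 and 9.60), the lipase co-activator Abhd5 (9.26 and 6.86) and the triglyceride lipase Pnpla2 (6.68 and 6.31). Uptake genes were open in 7 of 9 cases (median 4.14). Highest were the ubiquitin ligase gene Mylip (8.18 and 7.33) and the HDL receptor gene Scarb1 (7.13 and 5.20).

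Export had the lowest median of the groups, with 10 of 13 genes open and a median of 1.48 over those 10. Its highest promoters were those of the transporter Abca7 (7.21 and 7.46) and the LXR genes Nr1h2 (6.56 and 7.07) and Nr1h3 (2.71 and 4.48). Of the whole list, Npc1l1, Abcg5 and Apoa1, genes best known from intestine and liver, had no promoter peak in either library, and Lcat had one in replicate 1 alone. Among the 48 open genes, 28 were lower in replicate 2 and 20 higher, a split not counted over all open genes. Medians cover open genes only, so a group with unopened genes is described by its count as well.

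**Figure D5:**
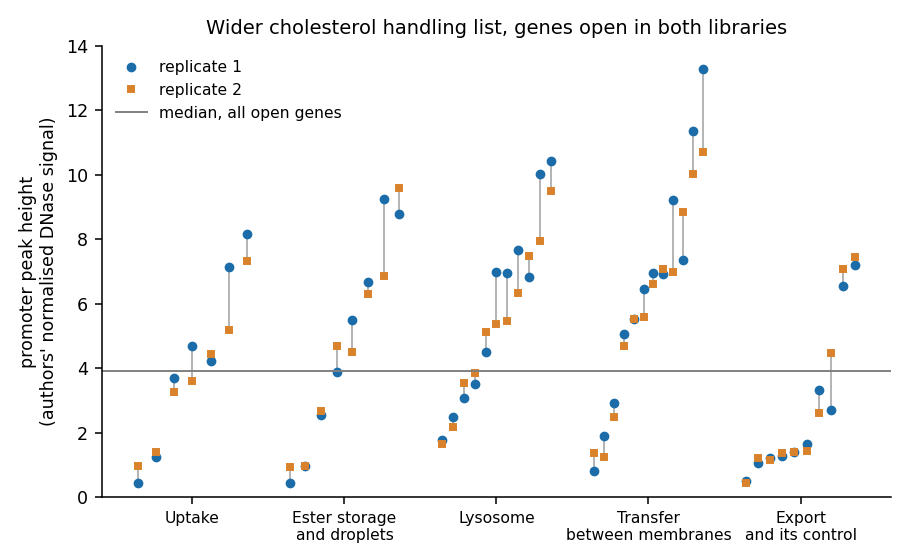
Promoter peak heights (authors' normalised DNase signal) of the 48 further cholesterol handling genes open in both libraries, by group and ordered by mean height within it. Circles are replicate 1, squares replicate 2 and the line the median of all open genes at 3.90. In the export group, Abca7 and Nr1h2 lie above that line in both libraries and Nr1h3 in replicate 2 alone.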

How the data were processed

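The 7 genes and all lists and motifs were chosen with earlier results of these data known. The authors called peaks, footprints and false discovery rates per library on reads aligned to mm10, per the labels and the deposited file index. Which aligner and callers they used is not given in the sources used here. Peak height is a signal normalised and deposited by the authors, and the longer of 2 deposited peak lists per library was used. Heights came in whole multiples of 0.00531 (replicate 1) and 0.00750 (replicate 2), with 100% within 0.05 of a whole number of steps and a median of 135 and 100 steps per peak. Total read depth per library is unknown from the files used. The footprint score in the deposited files was 0.01 throughout and served no purpose here. The false discovery rate (q-value) deposited by the authors was listed only under 0.05.

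Peaks of both libraries that overlapped by at least 1 bp were merged into regions, and a region took its highest peak per library. Footprints of both libraries counted as the same if they overlapped by 1 bp. Genes came from GENCODE vM21, without 54 records whose symbols were not unique. Coordinates are 1-based on GRCm38 (mm10). Motifs were searched on both strands as exact letters, overlapping matches kept, and a match was under a footprint if the footprint of a library covered at least 50% of it. The list held NR5A1 half-sites (TCAAGGTCA or TCAAGGCCA or CCAAGGTCA or CCAAGGCCA), the sterol response element (TCACNCCAC), the CLEAR E-box (TCACGTGA), the cAMP response element (TGACGTCA), AP-1 (TGANTCA), the CCAAT box, the GC box (GGGCGG), NRF1, CEBP (TTGCNNAA), ETS (CCGGAAGT), NFI, a strict CTCF core (CCNNNAGGGGGC), its relaxed form (CCNNNAGNNGGC), which contains the strict one, DR4 and DR1. Background shares used 200 bp windows at region centres where so stated and whole regions otherwise. Named were all 7 genes, each promoter region, the 3 highest shared regions per locus outside the gene's own promoter and the highest region in 1 library, and from the wider list the 3 highest promoters per group and each gene with none, except for a few items that are not reported here. Named beyond this rule, after their values were seen, were regions at Ch25h, Abcg1 and Abca1 that hold a motif or stand out between libraries. The same holds for Lcat, the chromaffin markers open in both libraries and the marker genes of the gene body measure. The relaxed CTCF core and the gene body measure were added after seeing the data. Merging, calling and motif search were tested on simulated peaks. Python 3.11.15, pandas 2.3.3, numpy 2.4.6 and scipy 1.17.1 were used. Alternatives are described in the closing section.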

Additional observations from a re-analysis of the deposited data

How the results depend on the processing

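Of 49 alternative values of the summary results, 44 stayed within a set limit and 5 did not. The limit was the spread between libraries for heights and listed percents, and 1.5 times for counts. For the log2 ratio it was the SD over the shared regions of the 7 loci (0.445), which is wider than the median ratio itself. For heights and listed percents with 1 library alone, the limit comes from the same 2 libraries, so staying within it says little. The median promoter height of the 7 genes (4.97) was 3.93 with promoters within 500 bp and 3.91 with the region nearest to a start, which lower Lipe and Abca1 alone. The number of regions found in both libraries (64) was 100 with flanks of 100 kb, by construction, and 86 to 120 when every region of 1 library was counted. Footprints in the promoters (36) were 54 to 60 with 1 library alone. The other results with 1 library were 7 to 7 genes with a promoter peak, a median height of 4.85 to 5.16, 48 to 49 genes of the wider list, 41 to 43 motif matches under footprints (34 in both) and a median 1.97% to 3.03% of each locus listed by false discovery rate. The single-library readings of motifs and of false discovery rates were added after seeing the data. The open count was 6 of 7 with only the 5′ end of the gene record (without Lipe) and with 50% overlap (without Abcg1). The median log2 ratio stayed above 0 under the 6 alternatives tried, from 0.09 to 0.23. No paired analysis was possible because both libraries belong to 1 group. Whether a region missing from 1 list lay below the detection limit of that library was not tested.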
